A study of Equus caballus with 10 samples.

Results

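The 100 genes described here are the most abundant transcripts in the blood of 10 Arabian horses whose values overlapped between trained and untrained animals. They were chosen by measured values, the scaled counts themselves, from 26991 Ensembl horse gene rows. Each count was divided by its library's size factor, the median ratio of a library's counts to the geometric mean over libraries among the 1278 genes with a count in all 10 horses. The 37 highest-numbered IDs were left out, and genes were dropped when the range of scaled counts in trained horses did not touch that in untrained horses. The 100 remaining genes with the highest mean were the members. Down to the last member, 112 genes were ranked and 12 of them were dropped, 11 with trained horses above and 1 with trained horses below. Among tested genes without those 37 IDs, 7.76% were separated in this way, 4.36% upward in training and 3.4% downward. High mean count and overlap were therefore chosen and are no findings. Mean scaled counts were 131.1 for the last member, ENSECAG00000023919, and 129.9 for ENSECAG00000018671, the first gene outside.

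The untrained group held 6 horses aged 2.5 years (males 17, 50, 52 and 53, females 49 and 51), and the group in racing training held 4 horses aged 3 years (males 21 and 33, females 31 and 32). Horses are named by their sample numbers. All were Arabian horses sampled as whole blood, and age changed together with training, so the effects of age and training cannot be told apart. The labels do not say how long after exercise blood was drawn. Circulating blood mixes red cells, platelets and several kinds of white cell. In such samples a small number of genes, commonly those for globins, ribosomal proteins, ferritin and actin, are known to take a large part of the messenger RNA. The files pair no gene ID with a name, and a RefSeq horse gene table matched 0 of the 100 members. Which members encode such proteins, and whether defining markers of blood cells are among them, is therefore not stated here. In bulk blood, fewer cells of a type and less RNA per cell cannot be told apart.

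Libraries held between 70899 counts (trained horse 33) and 129195 counts (untrained horse 53). The least counted member had 62 counts in its lowest library, so the precision of these genes was high for this series. Counting error alone would give a coefficient of variation (CV, the SD divided by the mean) between 1.13% and 9.03% per member. These values are for the counts as deposited, and the labels do not say whether the counts sum the 6 technical repetitions of sequencing. Trained males 21 and 33 stood apart from the other horses, and some results that rest on them are given with and without them. The principal components below were computed with all horses only. Of genes with a count, horse 33 showed 1762 and horse 21 showed 1956, against 2113 to 2384 in the others. No repeat element row had a count.

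The members took between 41.7% and 50.9% of the counts of each library. Their share of all counts was 45.2% ± 3.10 (SD, n = 6) in untrained and 46.8% ± 3.00 (SD, n = 4) in trained horses. The lowest share was 41.7% in untrained horse 53 (95% Wilson interval 41.4% to 42.0%). The highest was 50.9% in trained horse 21 (50.6% to 51.2%), followed by 49.96% in untrained female 51 (49.7% to 50.2%). The 2 groups overlapped, and the intervals cover counting error only. The 37 IDs left out by the rule took 19.8% of horse 53 and 9.54% of horse 51, the highest and lowest values for those IDs. Their part in the members' share was not tested.

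Within this share, more of the variation lay in the 10 members with the highest counts. These 10 took from 19.9% of the counts in untrained horse 17 to 29.0% in trained horse 21, with an SD of 2.84 percentage points over 10 horses. The other 90 members took 20.7% to 24.3%, with an SD of 1.08 percentage points. Within the 6 untrained horses alone, which leaves out horse 21, the SDs were closer, at 2.09 and 1.23 percentage points. Without division by gene length, which the files do not give, the order of genes by count is not their order by number of molecules.

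ENSECAG00000001541 had the highest mean of the members. Its scaled count was 7406, 8408, 7665, 7087, 6743 and 8152 in untrained horses 17, 49, 50, 51, 52 and 53, and 10020.1, 7504, 8022 and 9693 in trained horses 21, 31, 32 and 33. Both trained males were above every untrained horse, and both trained females were within the untrained range. As an unscaled share of the library the order differed, with 8.08% in horse 33 and 7.47% in horse 21, below the 8.44% of untrained female 49. The means were 7577 ± 632 (SD, n = 6) in untrained and 8809.8 ± 1234 (SD, n = 4) in trained horses. This gene alone took 7.45% of a library on average (SD 0.550, n = 10), and its CV over all horses was 13.2%.

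ENSECAG00000012949, second by mean, varied far more. Untrained horses 17, 49, 50, 51, 52 and 53 had scaled counts of 2117, 2315, 2397, 3099, 2049 and 2605, and trained horses 21, 31, 32 and 33 had 5665, 1746, 2355 and 3415. The highest and the lowest horse of the series were thus both in training. The group means were 2430.4 ± 384 (SD, n = 6) and 3295 ± 1724 (SD, n = 4). Its CV was 40.6%, and 17.3% without horses 21 and 33. On the log2 scale the edgeR trained minus untrained difference was 0.41 with all horses and -0.22 without those males, so the sign of this difference rested on them. Without them the trained group held only females, and sex was not in the fit. Sex and training are therefore mixed in the value of -0.22.

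**Figure D1:**
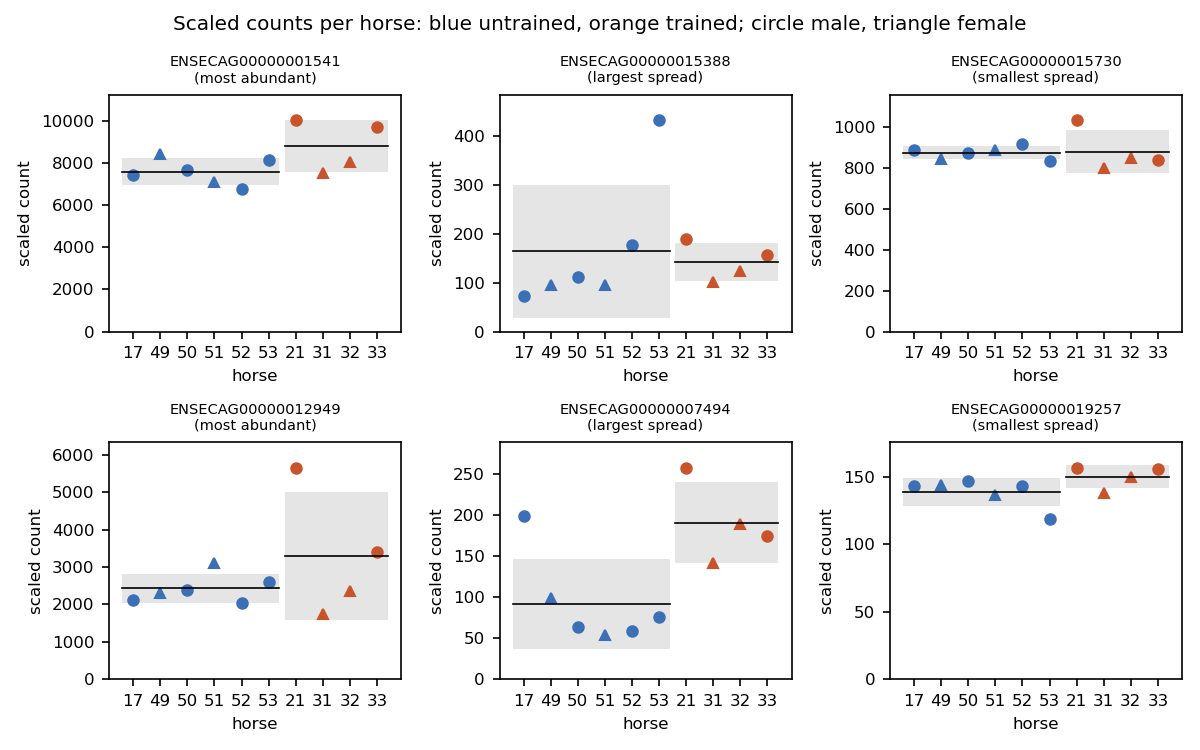
Scaled count (counts divided by the library's size factor) of 6 members in each of 10 horses, with the group mean (line) and 1 SD (grey band). The most abundant members are in the left column, those of largest CV in the middle and those of smallest CV on the right; ENSECAG00000015388 reaches 433 in horse 53, and ENSECAG00000019257 stays between 119 and 157.

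Spread between horses was moderate for most members and exceeded counting error for nearly all. The median CV over 10 horses was 20.4% (quartiles 16.2% and 26.9%), against a median counting error of 6.84%. The variance was more than 10 times the counting variance in 48 members and less than 2 times in 4. In 56 members the highest horse was under 2 times the lowest, and in 6 members it was over 3 times. The next 100 overlapping genes by mean had a median CV of 20.6%, with a counting error of 10.4%. Among the 777 other genes with a mean scaled count of at least 10 it was 29.3%, with a counting error of 19.4%. CVs of sets with unequal counting error are not directly comparable.

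The 10 members of highest mean were more variable than the rest of the list. Their median CV was 29.8%, against 20.1% at ranks 11 to 50 and 19.2% at ranks 51 to 100. Without trained males 21 and 33 these medians were 15.0%, 15.5% and 17.3%, so the higher value of the first 10 rested on those 2 horses. For all 100 members the median CV without them was 16.3%. Within untrained horses it was 15.9% and within trained horses 19.4%, and the trained CV was the larger in 55 of the 100. It was also the larger in 63 of the next 100 overlapping genes and in 494 of the 777 other genes. The trained CV rests on 4 horses, with 21 and 33 among them.

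**Figure D2:**
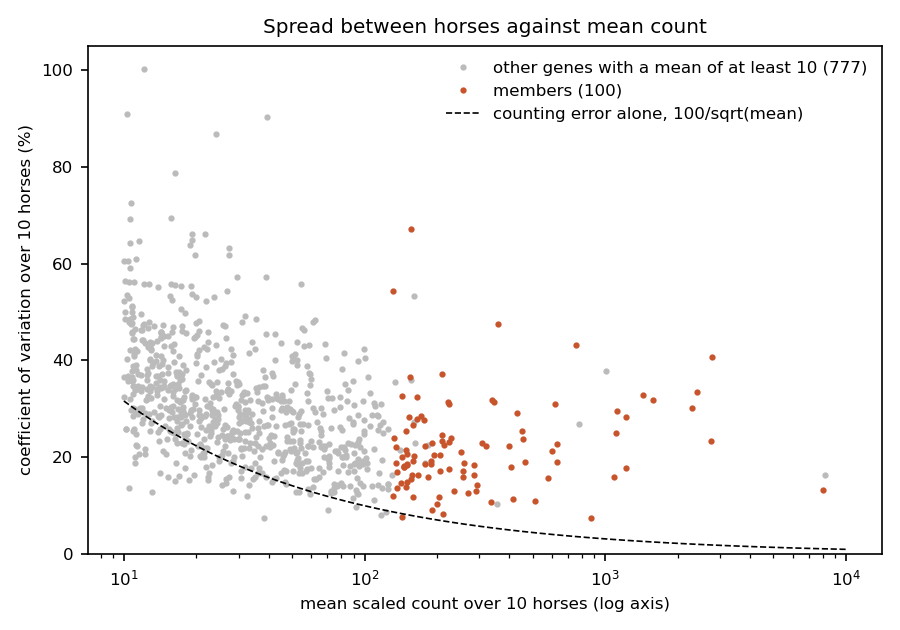
CV over 10 horses (percent) against mean scaled count (log axis) for the 100 members and 777 other genes with a mean of at least 10; the dashed line is the CV from counting error at a size factor of 1. Members lie above the line except ENSECAG00000019257, and their CVs run from 7.41% to 67.1%.

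The steadiest member was ENSECAG00000015730. Untrained horses 17, 49, 50, 51, 52 and 53 had scaled counts of 889, 844, 871, 889, 917 and 833, and trained horses 21, 31, 32 and 33 had 1034, 801, 847 and 837. Only horse 21 left the band from 801 to 917, and the CV of 7.41% fell to 4.16% without it. ENSECAG00000019257 followed at 7.57%, below its own counting error of 8.41%. Its values were 144, 144, 147, 137, 143 and 119 in untrained horses in the same order, and 157, 138, 149.7 and 156 in trained horses. At this depth no spread between horses beyond counting error was detectable for that gene.

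The most variable member was ENSECAG00000015388, with a CV of 67.1%. Its scaled count was 72.7, 96.2, 111, 95.5, 178 and 433 in untrained horses 17, 49, 50, 51, 52 and 53. Trained horses 21, 31, 32 and 33 had 190.2, 100.8, 125 and 157. The value of 433, from 499 counts in male 53, stood far above the next untrained value of 178, and without that horse the CV was 32.6%. All trained values fell inside the untrained range. Horse 53 also had the highest share of the 37 left-out IDs, and the part of this in the value was not tested.

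ENSECAG00000007494 came second by spread, with a CV of 54.4%, and is nearly a gene with separated groups. Untrained horses 49, 50, 51, 52 and 53 had 98.9, 63.7, 53.3, 59.2 and 75.4, while untrained male 17 had 198. Trained horses 21, 31, 32 and 33 had 258, 142, 189.7 and 174. Horse 17 lay among the trained horses, and all 5 other untrained horses lay below the lowest trained one. The means were 91.5 ± 54.8 (SD, n = 6) and 191 ± 48.95 (SD, n = 4).

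Trained male 21 was the horse in which members most often peaked. It held the highest scaled count of 42 of the 100 members and of 9 of the first 10, while horse 33 held the highest of 17. Each of the other horses held 2 to 10. Among 841 other tested genes, which unlike the members included genes with separated groups, horse 21 was highest in 22.8% and horse 33 in 13.3%. Most of those genes had lower counts and larger counting error, so the shares are not directly comparable. Horse 21 was also the highest in most of the 12 abundant genes dropped by the rule, of which 11 had trained horses above. Horse 21 differed by more than 1.5-fold from a member's mean over horses (on the log2 scale) in 29 members, 22 above and 7 below, against 1 to 7 members in any other horse. Horses 21 and 33 were both above the mean in 63 members, both below in 18 and on opposite sides in 19. In 27 members they were the 2 highest horses, and in 4 the 2 lowest.

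This pattern depended in part on the scaling. With TMM scaling (edgeR's trimmed mean of M-values), horse 21 was highest in 37 members, and with library totals alone in 19, although still in 7 of the first 10. With library totals it was also the lowest horse in 27 members, against 12 with size factors. The median member lay 0.30 above its mean on the log2 scale in horse 21 with size factors, 0.25 above with TMM and -0.02 from it with totals. That the first members peaked in horse 21 held under all 3 scalings, whereas a rise of the typical member did not.

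**Figure D3:**
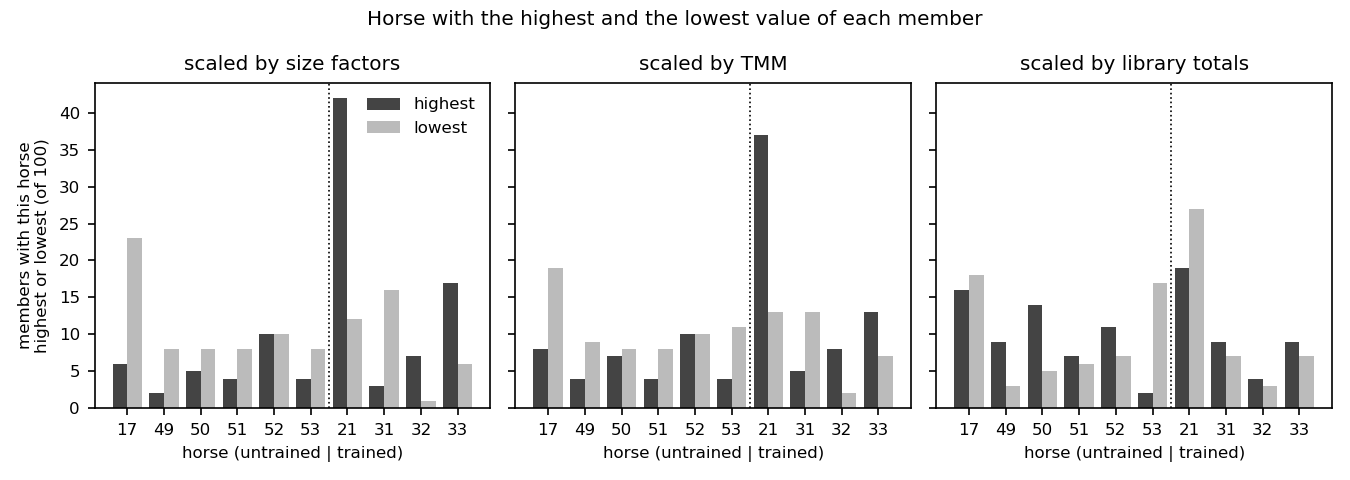
Number of the 100 members for which each horse had the highest (dark bars) or lowest (light bars) value, under 3 scalings, with untrained horses left of the dotted line. Horse 21 is highest in 42, 37 and 19 members, and under library totals it is also lowest in 27.

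The members' horse-to-horse variation was summarised by principal components of log2 scaled counts, centred per gene. The first component held 41.5% of the variance. Horse 21 scored 5.18 and horse 33 scored 2.26, while the other 8 horses scored between -1.57 and -0.09. The second component held 28.1%, and on it 5 of the 6 untrained horses scored below every trained horse. Untrained male 17 scored 2.95 and trained females 31 and 32 scored 1.90 and 1.70. Horses 21, 33 and 49 scored 0.31, 0.11 and 0.02, and untrained horses 50, 51, 52 and 53 scored -1.48, -2.11, -1.98 and -1.43. Horse 17 was thus farther from the other untrained horses than any trained horse was on this axis. With library totals, horses 17, 31 and 32 still scored 3.05, 2.03 and 1.72, while horses 21 and 33, at -0.12 and -0.05, fell below untrained female 49 at 0.07. With TMM, horses 21 and 33 were below horse 49 as well.

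**Figure D4:**
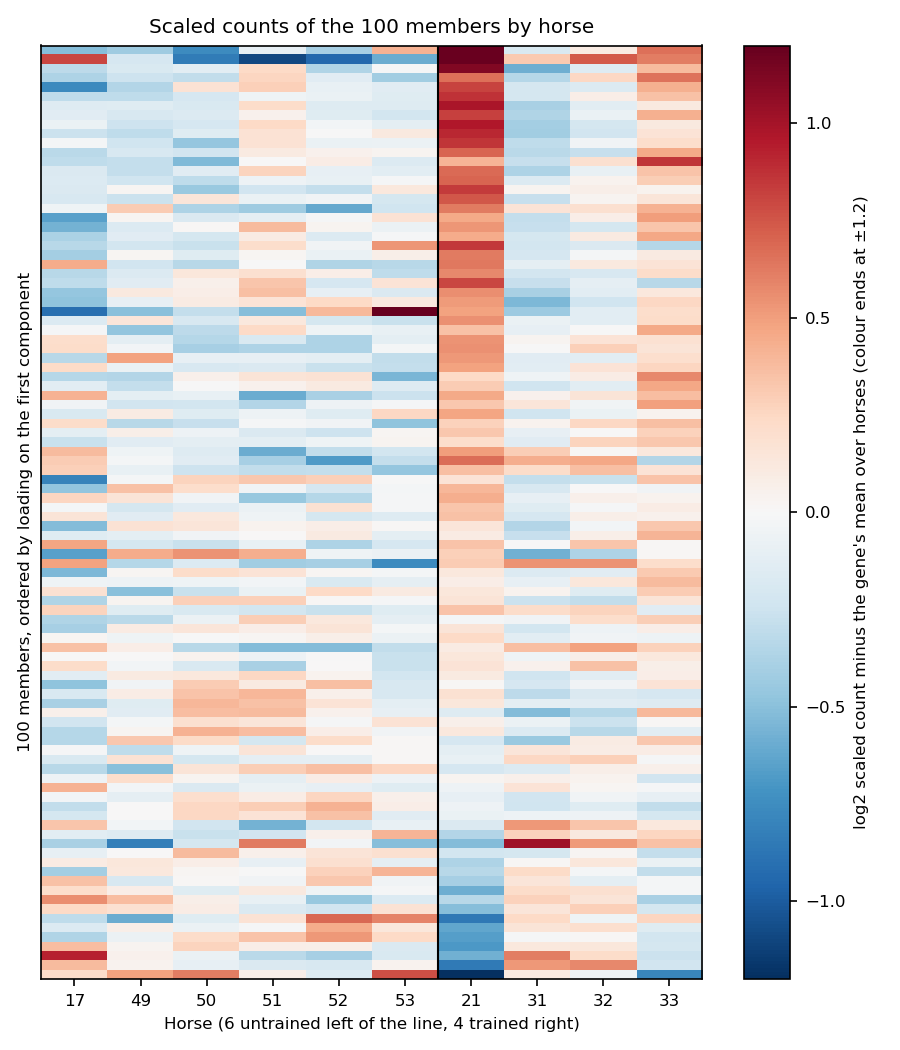
Log2 scaled count minus the gene's mean over 10 horses for the 100 members (rows, ordered by their loading on the first component) in 6 untrained and 4 trained horses (columns). Horse 21 scored highest on that component, so the row order itself makes its column run from strongly high (top) to strongly low (bottom). Horse 33, with the next highest score, shows a weaker version of the same order.

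Overlap between the groups rested on a single horse in close to the same share of members as of other overlapping genes. The part of a member's whole range that both groups shared had a median of 40.2% and ran from 2.40% to 89.0%. In 27 of the 100 members the groups would separate if a single horse were left out. In other tested genes with overlapping groups this was so for 207 of 768, or 27.0%. Leaving out untrained horse 17 separated 13 members, 12 of them with trained horses above, where the share among the other overlapping genes was 7.55%. Leaving out trained horse 31 separated 8, all with trained horses above, where that share was 10.8%. Horses 32, 33, 49 and 53 each did so for 2 members, and horses 21, 50, 51 and 52 for none. At the other end, the trained range lay wholly inside the untrained range in 13 members, and the reverse held in 17. These counts describe the contrast that chose the members. The shared part of the range and the ranges lying inside one another were not computed for other genes.

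The same holds for the size of the training difference, which is given as a description. The edgeR trained minus untrained log2 difference of the members had a median of 0.15 and ran from -0.76 to 1.04, with 69 of 100 above 0. The median over all 968 tested genes was 0.00. Without scaling factors both medians were lower, 0.00 with 48 members above 0 and -0.15 over all genes, and the members' median lay 0.14 above that of all genes, against 0.15 with TMM. Without horses 21 and 33 the members' median was 0.01, with 51 above 0. Only females then remained in training, and sex was not in this fit, so sex and training are mixed in these values. Of all tested genes 2.58% passed an adjusted p under 0.05, and 0 of the 100 members did with edgeR. Nothing is read from this count, since the choice of members used the contrast. In the authors' deposited table all 100 members are listed, with log2 values from -0.77 to 1.06 and a median of 0.17, and the smallest adjusted p among them is 0.230. The largest value of both sources belonged to ENSECAG00000007494.

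Sex was the labelled contrast that the choice of members did not use, and it asked whether abundant transcripts differed between the 6 males and the 4 females. With training as a covariate, edgeR's quasi-likelihood test called 0 of the 100 members and 0 of all 968 genes (background 0%). At an unadjusted p under 0.05 it found 2 members, 1 higher in each sex, where the share over all tested genes was 4.75% (46 of 968). limma voom and DESeq2 also called 0 genes. At an unadjusted p under 0.05, limma voom found 38 of 968 genes (3.93%), with 0 members among them. DESeq2, run with no filter on low counts, found 39 of 4213 genes (0.926%), with 3 members among them. The members' log2 male minus female differences had a median of 0.06 and ran from -0.58 to 0.83, with a median standard error of 0.18. Only 1 exceeded 1.5-fold upward and none downward. Differences of the size of that standard error cannot be told from 0 here.

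The side of the members' sex difference changed when trained males 21 and 33 were left out. No trained male then remained, so with training as covariate the difference came from the 4 untrained males and 2 untrained females alone. Of the members, 64 were higher in males with all horses and 43 without those males, and their median went from 0.07 above that of all tested genes to -0.04 from it. Without scaling factors 33 members were higher in males, but the median over all genes moved too, from -0.01 to -0.12, and the members' median stayed 0.07 above it. Leaving out untrained female 51 raised the count of members at an unadjusted p under 0.05 from 2 to 13, and the share over all tested genes rose to 9.41%. Leaving out horse 17 raised the count to 6 and that share to 7.28%. Without horse 21, 31 or 53 the count was 0, where the shares over all tested genes were 2.47%, 3.2% and 4.83%. It was 1 without horse 49 or 32, where those shares were 5.11% and 2.57%.

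Single members gave no firmer difference. ENSECAG00000015388 had a log2 difference of 0.83 (SE 0.363, edgeR adjusted p = 0.805), with 190.3 ± 127 (SD, n = 6) in males and 104 ± 13.9 (SD, n = 4) in females. Males 17 and 50 were at 72.7 and 111, within or below the female range of 95.5 to 125, and males 21, 33, 52 and 53 were above it. Without horse 53 the difference was 0.44. ENSECAG00000011985, next among those higher in males, had 170.3 ± 22.0 in males and 139.6 ± 21.4 in females, a log2 difference of 0.29 (SE 0.165, edgeR adjusted p = 0.805).

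ENSECAG00000013039 was the leading member on the female side. Females 49, 51, 31 and 32 had scaled counts of 395, 1079, 1412 and 995, and males 17, 50, 52, 53, 21 and 33 had 533, 603, 683, 490.0, 489 and 891. Female 49 was the lowest horse of all, and the other 3 females were the 3 highest. The log2 difference was -0.58 (SE 0.259, edgeR adjusted p = 0.805), -0.86 without horse 49 and -0.29 without horse 51. ENSECAG00000021664 followed with -0.42 (SE 0.238, edgeR adjusted p = 0.805). Its trained females 31 and 32 had 227 and 237, and its trained males 21 and 33 had 88.0 and 135. Untrained females 49 and 51, at 163 and 141, fell inside the range of untrained males, 139 to 206. Without horses 21 and 33 its difference, then between untrained horses only, was 0.10, on the other side of 0.

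**Figure D5:**
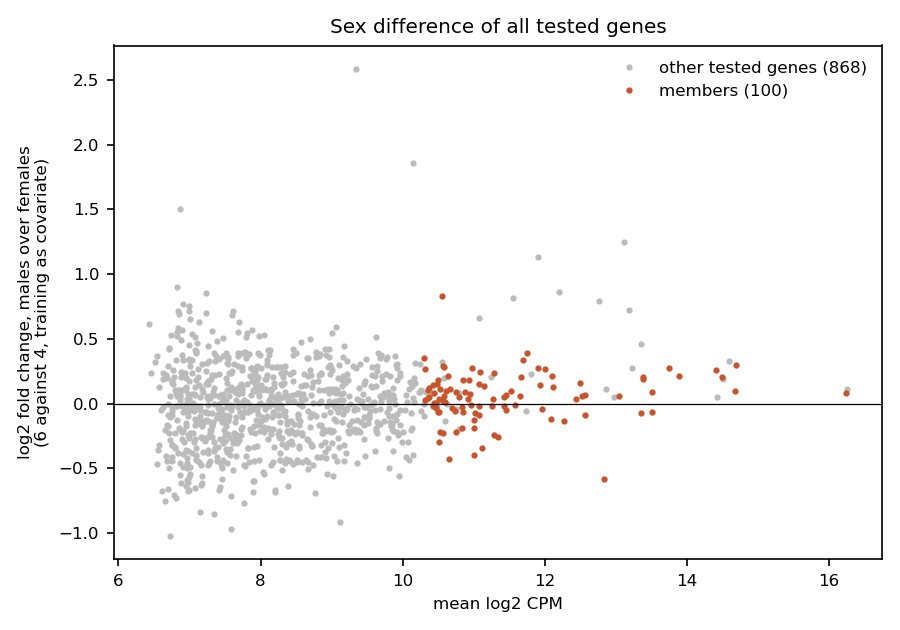
Log2 fold change of males (6) over females (4), with training as covariate, against mean log2 CPM for 100 members and 868 other tested genes. Members lie between -0.58 and 0.83, and none passed the adjusted threshold.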

How the data were processed

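Per the labels, RNA of whole blood from 10 horses was made into TruSeq RNA Kit v2 libraries. FastQC, STAR, RSEM and DESeq are listed in the submitters' processing notes, without versions. The labels name no genome build, annotation or strand setting, and do not say how the 6 technical repetitions of sequencing were combined. The authors deposited raw, whole-number counts per gene. Their deposited comparison holds means of counts divided by size factors (a signal), the fold of the trained over the untrained mean, its log2 value, and p-values with adjusted p-values. Its means were recomputed for the members and differed by at most 3.87e-12.

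Members were taken by the rule above with pandas 2.3.3. Sex (training as covariate) and training were fitted over all 968 genes left by filterByExpr (minimum count 10, total 15) with edgeR 4.0.16 in R 4.3.3, using quasi-likelihood F tests, TMM and Benjamini-Hochberg at 0.05. Standard errors of edgeR differences were derived as the absolute log2 difference divided by the square root of the F statistic. DESeq2 1.42.0 and limma 3.58.1 (voom), other scalings and filters, and horses left out were alternatives. The fits were tested on simulated data. Since each library is another animal, p-values reflect variation between libraries. This holds differences among horses together with those of library preparation and sequencing. Members, lists and tests were chosen with earlier results of these data known. Gene lists could not be used without names. Without names, up to 2 IDs were printed for each of highest mean, largest and smallest CV, sex in each direction, and the edge of the list.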

Additional observations from a re-analysis of the deposited data

Results flagged for a closer look

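Among 30 sets of values examined (11 genes and 4 library shares, each in the untrained and the trained group), 5 held a horse far from the rest of its group. Chance gives about 1 in 20 such sets, but that rate does not apply to genes named for a large or small CV or a sex difference, as all 4 genes given here were. ENSECAG00000015388 had a scaled count of 433 in untrained horse 53, and the next was 178. ENSECAG00000007494 had 198 in untrained horse 17, and the next was 98.9. ENSECAG00000021664 had 206 in the same horse, next to 163. ENSECAG00000019257 had 119 in untrained horse 53, and the next was 137. The share of counts in ENSECAG00000001541 was 8.08% in trained horse 33, and the next trained horse had 7.47%. Over all 100 members, 23 of 200 sets held such a horse. The rate of 1 in 20 does not apply here either, since members were chosen on the group ranges and shared much of their variation. The count was not made for other genes, so no excess is read from it. Untrained horse 17 was the distant one in 10 of them, 8 times high and 2 times low, trained horse 21 in 4, all high, and untrained female 51 in 4, all high.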

How the results depend on the processing

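Of the 100 members, 85 to 99 remained members under other scalings, the median in place of the mean, the 37 IDs kept in, or 1 horse left out (89 to 99). The mean share of counts was 53.8% with library totals, where other genes entered the list, and 45.2% to 46.3% with 1 horse left out. The median CV was 18.9% with library totals, 16.3% without horses 21 and 33, and 17.3% to 20.8% with 1 horse left out. For sex, 16 of 4213 genes and 1 member, ENSECAG00000015388, were called with no filter on low counts, and 0 genes and 0 members with any 1 horse left out. For training, which the choice of members used, members called numbered 1 with DESeq2 (60 of 4213 genes in all) and 1 with limma voom (58 of 968), ENSECAG00000007494 in both. They numbered 3 with no filter (76 of 4213), 2 without the 37 IDs (64 of 950), and 0 to 6 with 1 horse left out. Without horse 17 they were 5, where 8.95% of all genes were called, and without horse 31 they were 6, against 9.71%. Without horse 49 or 53 they were 1, against 2.4% and 1.68% of all genes. The log2 sex difference of ENSECAG00000021664 turned to 0.10 without horses 21 and 33, where only the untrained group still held both sexes. The causes of these changes were not tested. The scaling without factors was chosen after the data were seen. No paired analysis was possible because the groups are different horses and the labels do not match them in pairs.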
